A study of Mus musculus with 12 samples.

Results

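Slco2b1, Fcrls, Vcam1, Col14a1, Rab3il1 and Zmynd15 are 6 genes that stood far higher in libraries of lung interstitial macrophages than in libraries of nonclassical monocytes, and are less often named as macrophage genes than the complement or mannose receptor genes. They were taken by gene symbol from the 26608 gene rows of the count files, and all 6 are there. They were chosen by their measured IM and RM levels in these 12 libraries, so the difference between these cell types is described here with no test, and no numerical limit was set for it. All 6 passed the filter on low counts that left 14254 genes. They could pass through their IM libraries alone.

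The series holds 12 mouse RNA-seq libraries of about 250 sorted lung cells each, 3 in each of 4 groups. CrePos IM and CreNeg IM are interstitial macrophages, and CrePos RM and CreNeg RM are the cells whose tissue label is nonclassical monocytes. CrePos animals have Hif1a deleted with a Cre driven by Cx3cr1 (Hif1α Δ/Δ), and CreNeg animals carry the floxed Hif1a alleles without Cre (labelled Hif1α flox/lox). All animals, on a C57Bl/6 background, were kept in hypoxia for 3 weeks with a weekly dose of SU5416, a VEGF receptor inhibitor, so no group is unexposed. Since Cre was present in CrePos animals alone, its effects and those of losing Hif1a cannot be told apart. No age is given in the labels. Libraries are named by group and by their number in the labels (CrePos IM649). Nothing in the labels says that the numbers are separate animals, so p-values measure the spread between these libraries, which may be technical.

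Interstitial macrophages lie in the tissue between the airspaces and the vessels and are known for clearing debris, presenting antigen and making matrix and growth factors. Nonclassical monocytes patrol the inner wall of small vessels. Of the 6 genes, 3 encode proteins of the cell surface. Slco2b1 is a transporter of organic anions such as steroid sulfates, Fcrls is a mouse Fc receptor-like protein best known as a marker of microglia, and Vcam1 is an adhesion molecule that binds the integrin made of Itga4 and Itgb1. Col14a1 is a collagen that sits on the surface of collagen fibrils. Rab3il1 is an exchange factor that activates Rab GTPases of vesicle traffic, and Zmynd15 is a zinc finger protein known in mice as a repressor needed for sperm formation.

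On GRCm38 the genes lie on chromosome 7 from 99657804 to 99711340 (Slco2b1), chromosome 15 from 55307750 to 55520803 (Col14a1), chromosome 11 from 70459433 to 70466202 (Zmynd15), and chromosome 19 from 10001669 to 10038380 (Rab3il1). Fcrls (87250758 to 87263738) and Vcam1 (116109949 to 116129688) are both on chromosome 3. All 6 are annotated as protein-coding. Merged exon lengths of the GENCODE M21 models run between 2334 bases (Fcrls) and 8870 bases (Vcam1). No exon base is shared with another gene on the same strand. On the other strand Zmynd15 shares 552 exon bases with Cxcl16, Slco2b1 shares 549 with gene models, and Vcam1 shares 61. The strand setting of the counting is not given in the sources used here, so reads from these stretches may not be assigned to 1 gene.

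RefSeq promoter sequences of GRCm38.p6 (250 bases before to 50 after an annotated start) were at hand for 3 of the 6 genes, Slco2b1, Rab3il1 and Fcrls. One start of each is shown as an example, and matches are not confined to these windows. GAGGAA also lies in the Slco2b1 windows from 99695760 and 99706793. It lies in the Rab3il1 windows from 10001419 and 10001475 too. The Rab3il1 window shown has its start inside the gene and holds no GAGGAA. Capitals mark matches on either strand to GAGGAA (the core of sites for the myeloid factor PU.1), TGCTGA (part of the sites for MAF factors), TGANTCA (AP-1) and ACGTG (the core of HIF sites). GGGNTTTCC (NF-kB) was searched for too.
Fcrls, chr3:87263475-87263774, minus strand: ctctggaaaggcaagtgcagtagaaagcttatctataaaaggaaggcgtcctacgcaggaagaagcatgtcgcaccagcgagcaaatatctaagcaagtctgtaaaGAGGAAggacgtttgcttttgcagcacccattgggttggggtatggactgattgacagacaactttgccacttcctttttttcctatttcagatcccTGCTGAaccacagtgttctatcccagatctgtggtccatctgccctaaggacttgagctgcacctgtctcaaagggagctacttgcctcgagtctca
Slco2b1, chr7:99711291-99711590, minus strand: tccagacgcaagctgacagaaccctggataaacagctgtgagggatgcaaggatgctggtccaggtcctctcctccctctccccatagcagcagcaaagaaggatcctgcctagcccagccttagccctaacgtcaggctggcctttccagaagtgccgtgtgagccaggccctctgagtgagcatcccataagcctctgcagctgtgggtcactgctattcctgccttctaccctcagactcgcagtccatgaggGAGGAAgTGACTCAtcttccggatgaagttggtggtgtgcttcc
Rab3il1, chr19:10017944-10018243, plus strand: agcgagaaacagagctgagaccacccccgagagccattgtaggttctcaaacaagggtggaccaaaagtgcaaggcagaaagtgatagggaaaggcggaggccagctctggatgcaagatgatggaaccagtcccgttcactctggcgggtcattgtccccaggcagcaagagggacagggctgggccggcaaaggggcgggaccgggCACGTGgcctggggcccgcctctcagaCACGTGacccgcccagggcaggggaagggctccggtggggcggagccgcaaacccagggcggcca
The Fcrls window holds GAGGAA from base -144 to -139 and TGCTGA from -47 to -42, counted from the start. In the Slco2b1 window GAGGAA lies at 7 to 12 and an AP-1 match, TGACTCA, at 14 to 20, both downstream of the start. The Rab3il1 window holds 2 copies of CACGTG, from -42 to -37 and from -15 to -10. Each CACGTG reads as ACGTG on both strands, so the matches on both strands overlap. GAGGAA was found in 6 of the 9 windows of these genes and in 28.3% of all 32851 windows, ACGTG in 2 of 9 (19.6%), TGCTGA in 1 of 9 (19.5%), TGANTCA in 1 of 9 (7.81%) and GGGNTTTCC in 0 of 9 (1.68%). The 9 windows include alternative starts of the same gene that overlap each other. A match is a description of these letters.

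Levels are given as CPM, counts scaled to one common library size with TMM factors. The gene counts summed to between 7039631 and 9054232 in CrePos IM, 13333039 and 14099509 in CreNeg IM, 5332600 and 11169706 in CrePos RM, and 7238612 and 8583265 in CreNeg RM. Reads that the counting gave to no gene feature are called non-exonic here. The strand setting is not given, so they may hold exonic reads of the other strand. Their share of these reads and the gene counts together was 59.2 to 69.8% in CrePos IM and 38.5 to 44.2% in CreNeg IM. It was 55.1 to 72.7% in CrePos RM and 58.1 to 66.8% in CreNeg RM. The sum of 22 interstitial macrophage markers was 14722 to 17219 CPM in CrePos IM, 20980 to 21372 CPM in CreNeg IM, 1532 to 2624 CPM in CrePos RM and 3546 to 5078 CPM in CreNeg RM, and none of them was at 0 throughout. The sum of 16 nonclassical monocyte markers was 1858 to 2180 CPM in CrePos IM, 2304 to 2583 CPM in CreNeg IM, 4498 to 10683 CPM in CrePos RM and 11286 to 19057 CPM in CreNeg RM. CrePos RM649 and RM661 stood apart. CrePos RM649 had the fewest gene counts (5332600) and the fewest genes with a count (10526), and it lay farthest from the IM libraries on the first principal component. CrePos RM661 had the lowest sum of monocyte markers among the RM libraries and the highest sum of 16 endothelial markers (9905 CPM), and it lay nearest to the IM libraries on the first principal component. The targeted gene, Hif1a, was counted at 199 ± 6.50 CPM in CrePos IM and 228 ± 15.6 CPM in CreNeg IM, and at 172 ± 34.8 CPM in CrePos RM and 225 ± 19.6 CPM in CreNeg RM (SD, n = 3; adjusted p = 0.938 in IM and 0.407 in RM by edgeR). These counts cover the whole gene and do not measure the excision.

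All 6 genes were well counted in IM and low in RM. Summed over the 6 genes there were 998 to 1368 CPM in CrePos IM and 1501 to 1655 CPM in CreNeg IM, but 0.990 to 40.3 CPM in CrePos RM and 34.9 to 120.6 CPM in CreNeg RM. In bulk libraries of sorted cells, fewer cells that express a gene and less RNA per cell cannot be told apart. For each gene, every one of the 6 IM libraries lay above every one of the 6 RM libraries, a pattern that the choice of the genes largely fixes. IM libraries were sequenced on lanes 5 and 7 and RM libraries on lanes 6 and 8, so lane and cell type cannot be told apart. Over all genes this order held for 5.02%. Within CrePos 16.0% of all genes were higher and 6.25% lower in IM with no overlap, and within CreNeg 18.6% were higher and 17.2% lower. From the fit, the IM over RM fold ran between 26.7 (Col14a1) and 130 (Zmynd15) in CrePos and between 16.0 (Vcam1) and 32.5 (Fcrls) in CreNeg. The CrePos folds rest on few RM reads, since the 3 CrePos RM libraries together held 24 counts of Zmynd15, 25 of Rab3il1 and 88 of Fcrls. Without CrePos RM661 the fitted log2 difference of Zmynd15 was 12.95 in place of 7.02, with no read left in CrePos RM, and that of Slco2b1 was 9.10 in place of 6.48. Without CrePos RM650 that of Fcrls was 6.91 in place of 4.77, and without CreNeg RM659 its log2 difference in CreNeg was 6.87 in place of 5.02.

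**Figure D1:**
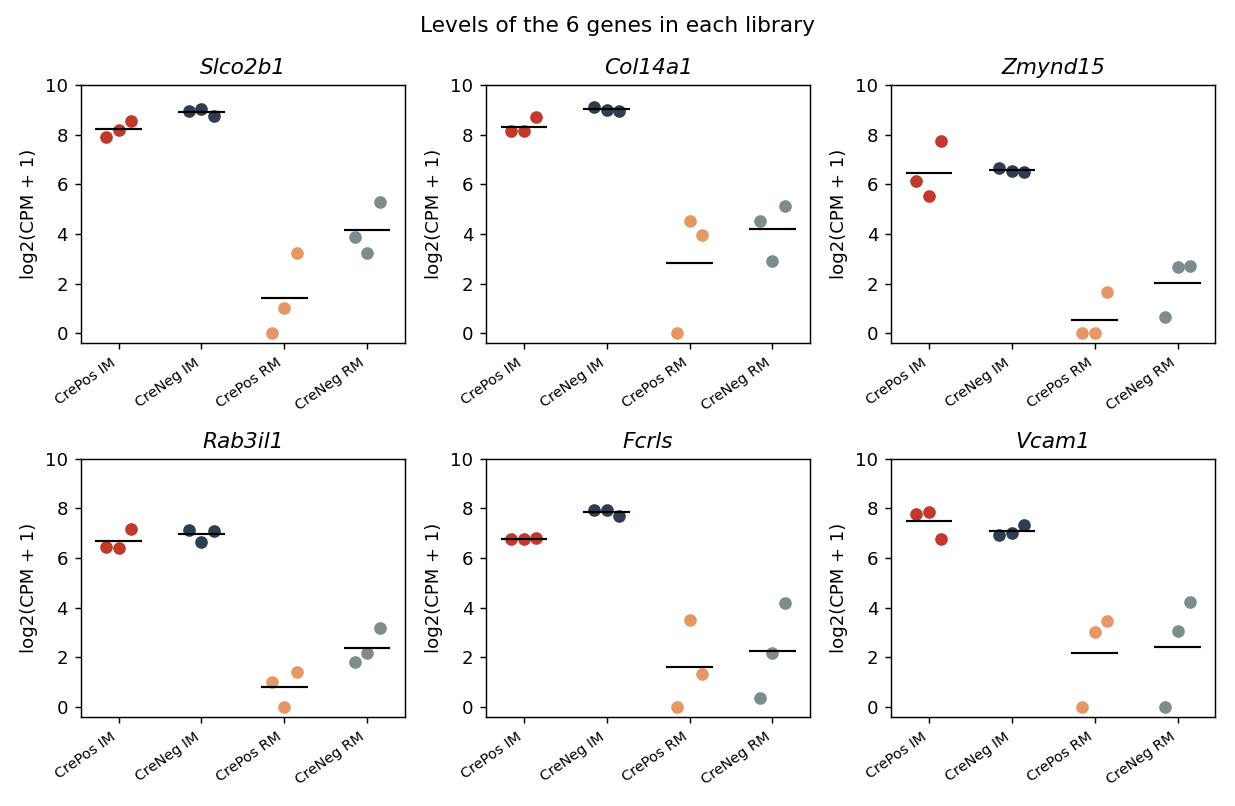
Level of each gene in the 12 libraries as log2(CPM + 1), by group (points: libraries, lines: mean of 3). The IM libraries of both genotypes lie above all RM libraries for each of the 6 genes.

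Compared per kilobase of exon, Fcrls, Slco2b1 and Col14a1 were the most abundant of the 6 genes in IM. In CreNeg IM the level was 99.2 ± 10.3 CPM per kb for Fcrls, 80.9 ± 8.75 for Slco2b1 and 74.2 ± 4.73 for Col14a1 (SD, n = 3). Zmynd15 (21.1 ± 1.1), Rab3il1 (17.8 ± 3.09) and Vcam1 (15.4 ± 2.21) followed. Within their spread there, Slco2b1 overlapped both Fcrls and Col14a1, and Rab3il1 overlapped both Zmynd15 and Vcam1. In CrePos IM the level was 50.7 ± 11.6 CPM per kb for Slco2b1, 46.2 ± 11.1 for Col14a1 and 46.1 ± 0.681 for Fcrls, which are within each other's spread. Zmynd15 (24.9 ± 20.8), Vcam1 (20.97 ± 7.62) and Rab3il1 (14.96 ± 4.91) had lower means, but the spread of Zmynd15 reached the others, with 48.6 CPM per kb in CrePos IM661, where Fcrls was at 46.8.

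The comparison of CrePos with CreNeg asks whether the loss of Hif1a in Cx3cr1-expressing cells goes with another level of these genes. The rule that chose the genes did not use this comparison. Earlier results of these data were known when the genes were chosen, so the choice may not be independent of it. In interstitial macrophages, Fcrls, Slco2b1 and Col14a1 were lower in all CrePos libraries than in all CreNeg libraries, and the other genes overlapped. None of the 6 passed edgeR's quasi-likelihood test at an adjusted p under 0.05. Of all 14254 genes 0.288% passed (34 or 0.239% higher, 7 or 0.0491% lower). None of the 6 had an unadjusted p under 0.05, as 1403 of the 14254 genes did, and none passed with DESeq2. The 3 genes with no overlap stand beside 13.4% of all genes that were lower in CrePos IM with no overlap and 16.2% that were higher. The median log2 fold change was -0.46 for the 6 genes and 0.07 for all genes, and 4 of the 6 lay below 0, as did 46.8% of all genes. Of the 22 IM markers, 16 lay below 0, with a median of -0.46, and none was past the threshold (1 with an unadjusted p under 0.05, none by DESeq2). Their sum was lower in every CrePos IM library than in every CreNeg IM library, and their part in the levels of the 6 genes was not tested. The 12 alveolar macrophage markers were below 0 in 12 of 12 cases, with a median of -0.44 and none past the threshold (2 with an unadjusted p under 0.05, none by DESeq2). They summed to 1096 to 2166 CPM in CrePos IM and 2401 to 2640 CPM in CreNeg IM, and their part was not tested either.

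Fcrls, the Fc receptor-like gene, stood at 107, 107 and 109 CPM in CrePos IM649, IM650 and IM661, against 244, 247 and 204 CPM in CreNeg IM648, IM659 and IM660. The CrePos libraries lay within 3 CPM of each other and the groups were far apart. The log2 fold change was -1.11 with a standard error of 0.97 (adjusted p = 0.883). The standard error of this fit draws on all 12 libraries, including the RM libraries in which Fcrls had between 0 and 143 counts. When only the 6 IM libraries were fitted with edgeR, Fcrls fell 2.15-fold in the same direction and passed (log2 fold change -1.10, adjusted p = 0.00651), in a fit where 7.0% of all genes passed and 2.96% passed as lower. It was lower in CrePos IM within both lanes, with a log2 ratio of -1.08 in lane 5 and -1.18 in lane 7. Over the alternatives given here its adjusted p ran between 0.00651 and 1, and its log2 fold change stayed below 0 in each of them.

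Slco2b1, the organic anion transporter, stood at 240, 289 and 377 CPM in CrePos IM649, IM650 and IM661, against 494, 527 and 425 CPM in CreNeg IM648, IM659 and IM660. The highest CrePos library lay below the lowest CreNeg library. It had a log2 fold change of -0.67 with a standard error of 0.74 (adjusted p = 0.944), and with the 6 IM libraries alone the adjusted p was 0.0569. Col14a1, the fibril-associated collagen, stood at 279, 279 and 414 CPM in CrePos IM649, IM650 and IM661, against 556, 513 and 491 CPM in CreNeg IM648, IM659 and IM660. Here too the groups did not overlap, and CrePos IM661 was nearest to the CreNeg libraries. The log2 fold change was -0.68 with a standard error of 0.80 (adjusted p = 0.960), and with the 6 IM libraries alone the adjusted p was 0.0502. The share of non-exonic reads was higher, and the gene counts were lower, in every CrePos IM library than in every CreNeg IM library. In IM, genotype, this share and depth therefore cannot be told apart. The slope of a covariate for the share was fitted to the spread within all 4 groups. With that share as a covariate the log2 fold change was 2.66 for Slco2b1 (adjusted p = 0.436) and 0.025 for Col14a1 (adjusted p = 0.998), and Fcrls was at -1.06 (adjusted p = 0.914). In that fit the median of all genes was 0.51 in place of 0.07. Relative to this median Slco2b1 was at 2.15 in place of -0.74, and Col14a1 at -0.48 in place of -0.75, so of these 2 genes Slco2b1 changed sign and Col14a1 did not.

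Zmynd15, the zinc finger gene, stood at 69.1, 45.1 and 214 CPM in CrePos IM649, IM650 and IM661, against 98.5, 92.5 and 88.7 CPM in CreNeg IM648, IM659 and IM660. CrePos IM661 was above all CreNeg libraries and the other CrePos libraries were below all of them. The log2 fold change was 0.23 with a standard error of 0.84 (adjusted p = 0.9995), and it was -0.76 without CrePos IM661 and -0.24 with the lane as a covariate. Cxcl16, a chemokine gene whose exons overlap those of Zmynd15 on the other strand, was at 510, 444 and 1077 CPM in CrePos IM649, IM650 and IM661, against 905, 793 and 721 CPM in CreNeg IM648, IM659 and IM660. It was likewise highest in CrePos IM661. Like Zmynd15 it was far lower in RM, at 9.57, 14.3 and 22.9 CPM in CrePos RM649, RM650 and RM661. In CreNeg RM648, RM657 and RM659 it was at 31.9, 49.3 and 72.7 CPM. The part of Cxcl16 in the Zmynd15 counts, and so in the IM over RM fold, was not tested.

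Rab3il1, the Rab exchange factor, stood at 86.3, 83.8 and 145 CPM in CrePos IM649, IM650 and IM661, against 140.2, 99.8 and 134 CPM in CreNeg IM648, IM659 and IM660. The groups overlapped through CrePos IM661, the highest of the 6 libraries. Its log2 fold change was -0.25 with a standard error of 0.56 (adjusted p = 0.999); with the non-exonic covariate it was 1.68, or 1.17 relative to the median of all genes in that fit, in place of -0.31. Vcam1, the adhesion molecule, stood at 216, 233 and 109 CPM in CrePos IM649, IM650 and IM661, against 122, 129 and 158 CPM in CreNeg IM648, IM659 and IM660. CrePos IM649 and IM650 were above all CreNeg libraries and CrePos IM661 was below them. Its log2 fold change was 0.45 with a standard error of 0.99 (adjusted p = 0.999). Vcam1 is also an endothelial gene, and the sum of the 16 endothelial markers was 2385, 3626 and 1075 CPM in CrePos IM649, IM650 and IM661, against 2188, 3102 and 1045 CPM in CreNeg IM648, IM659 and IM660. The part of endothelial RNA in the Vcam1 level was not tested.

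**Figure D2:**
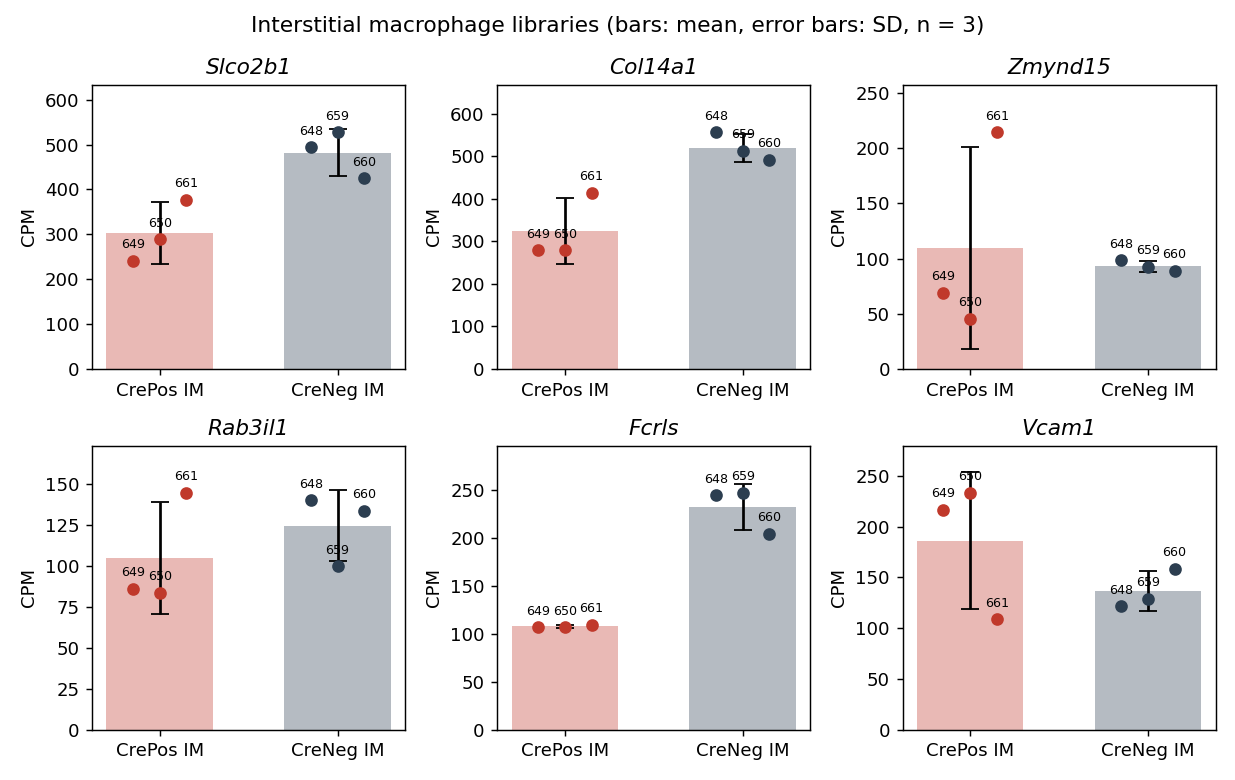
CPM of each gene in the 6 IM libraries, CrePos left of CreNeg (bars: mean, error bars: SD, n = 3, points: libraries with their number). Fcrls is at 107 to 109 CPM in CrePos and 204 to 247 CPM in CreNeg, and CrePos IM661 is the highest CrePos library for Slco2b1, Col14a1, Zmynd15 and Rab3il1 and the lowest for Vcam1.

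CrePos IM661 went apart from CrePos IM649 and IM650 for some genes and not for others. It was the highest CrePos library for Slco2b1, Col14a1, Zmynd15 and Rab3il1, close to the others for Fcrls and the lowest for Vcam1. Its share of non-exonic reads was 59.2%, against 66.7 and 69.8% in CrePos IM649 and IM650.

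In nonclassical monocytes all 6 log2 fold changes were below 0, with a median of -1.52, as against -0.10 for all genes, of which 54.1% lay below 0. None of the 6 passed edgeR's test, in which 0.421% of all genes passed (12 or 0.0842% higher, 48 or 0.337% lower), and 3 of the 6 had an unadjusted p under 0.05, as did 2301 of the 14254 genes. DESeq2 called Rab3il1 lower (adjusted p = 0.0188) and no other member, in a test that called 7.02% of all genes and 2.58% as lower. Slco2b1 and Rab3il1 were lower in CrePos RM with no overlap, as were 11.4% of all genes, while 5.90% were higher with no overlap. The IM markers had a median of -1.18 there, with 17 of 22 below 0 and none past the threshold (12 with an unadjusted p under 0.05, 7 by DESeq2). The 16 nonclassical monocyte markers were all below 0, with a median of -0.94 and 1 past the threshold (7 unadjusted, 1 by DESeq2). Of the 16 endothelial markers 0 lay below 0, with a median of 1.82 and none past the threshold (13 unadjusted, 11 by DESeq2). The part of these shifts in the levels of the 6 genes was not tested. With the RLE factors of DESeq2 the median of all genes was 0.04, and relative to the median of all genes Slco2b1 was at -2.46 log2 units, against -2.47 with TMM.

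Slco2b1 stood at 0, 1.03 and 8.34 CPM in CrePos RM649, RM650 and RM661, against 13.9, 8.44 and 38.1 CPM in CreNeg RM648, RM657 and RM659. CrePos RM661 came to within 0.1 CPM of the lowest CreNeg library. The log2 fold change was -2.57 with a standard error of 0.82 (adjusted p = 0.142). Rab3il1 stood at 0.990, 0 and 1.69 CPM in CrePos RM649, RM650 and RM661, against 2.51, 3.55 and 8.0 CPM in CreNeg RM648, RM657 and RM659. All values rest on at most 66 counts. Rab3il1 had a log2 fold change of -2.30 with a standard error of 0.67 (adjusted p = 0.110). Zmynd15 stood at 0, 0 and 2.13 CPM in CrePos RM649, RM650 and RM661, against 0.590, 5.38 and 5.46 CPM in CreNeg RM648, RM657 and RM659 (log2 fold change -2.19, standard error 1.01, adjusted p = 0.301). CrePos RM661 lay above CreNeg RM648, so the groups overlapped. Without CrePos RM661 these 3 genes passed, Slco2b1 at an adjusted p of 0.0129, Zmynd15 at 0.0357 and Rab3il1 at 0.0426, in a fit where 3.84% of all genes passed and 3.37% as lower. Without CrePos RM649 none of the 6 passed, with Slco2b1 at -2.04 (adjusted p = 0.161), Zmynd15 at -1.70 (0.423) and Rab3il1 at -2.30 (0.151).

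The other genes overlapped between the RM groups. Col14a1 stood at 0, 21.7 and 14.4 CPM in CrePos RM649, RM650 and RM661, against 21.8, 6.61 and 33.7 CPM in CreNeg RM648, RM657 and RM659 (log2 fold change -0.77, adjusted p = 0.695). Fcrls stood at 0, 10.4 and 1.51 CPM in CrePos RM649, RM650 and RM661, against 0.295, 3.55 and 17.3 CPM in CreNeg RM648, RM657 and RM659 (log2 fold change -0.85, adjusted p = 0.739). Vcam1 stood at 0, 7.05 and 10.03 CPM in CrePos RM649, RM650 and RM661, against 0, 7.34 and 17.95 CPM in CreNeg RM648, RM657 and RM659 (log2 fold change -0.54, adjusted p = 0.848). For Fcrls and Vcam1 the sign rests on CreNeg RM659, without which the log2 fold changes were 0.99 and 0.64, and that of Vcam1 was 0.017 without CrePos RM649. With the lane as a covariate they were 0.41 and 1.14. Within lanes 6 and 8 the log2 ratio of Slco2b1 was -4.50 and -1.73, whereas that of Col14a1 was 0.11 and -1.60. In lane 8 Zmynd15 (0.85) and Fcrls (1.35) were higher in the mean of 2 CrePos libraries than in the single CreNeg library, and Rab3il1 was at -0.91. In lane 6 Zmynd15 and Rab3il1 had no read in CrePos RM650, and Fcrls was about equal, at 10.4 CPM in CrePos RM650 and a mean of 10.4 CPM in CreNeg RM. Endothelial markers summed to 4434, 3774 and 9905 CPM in CrePos RM649, RM650 and RM661, against 846, 1520 and 3057 CPM in CreNeg RM648, RM657 and RM659, and their part in the RM values was not tested.

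A count of 0 has a limit set by depth. In CrePos RM649, 5 of the 6 genes had no read. There 3 counts, taken as an approximate upper limit for a count of 0, stand for 0.495 CPM. CrePos RM650 had no read of 2 genes (0.441 CPM), and CreNeg RM648 had none of Vcam1 (0.443 CPM). These limits cover counting error only.

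The difference between the deletion effects, IM minus RM, did not pass for any of the 6 genes or for any gene in edgeR (0.00% of genes; 1271 genes had an unadjusted p under 0.05, and DESeq2 called 60). Rab3il1 had the only unadjusted p under 0.05 among the 6 genes (difference 2.05 log2 units, standard error 0.87, adjusted p = 0.522). The difference was 2.43 for Zmynd15 (adjusted p = 0.617) and 1.90 for Slco2b1 (adjusted p = 0.638). It was 0.99 for Vcam1 (adjusted p = 0.903), -0.26 for Fcrls (adjusted p = 0.986) and 0.089 for Col14a1 (adjusted p = 0.996), and these 3 changed sign under some of the alternatives.

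**Figure D3:**
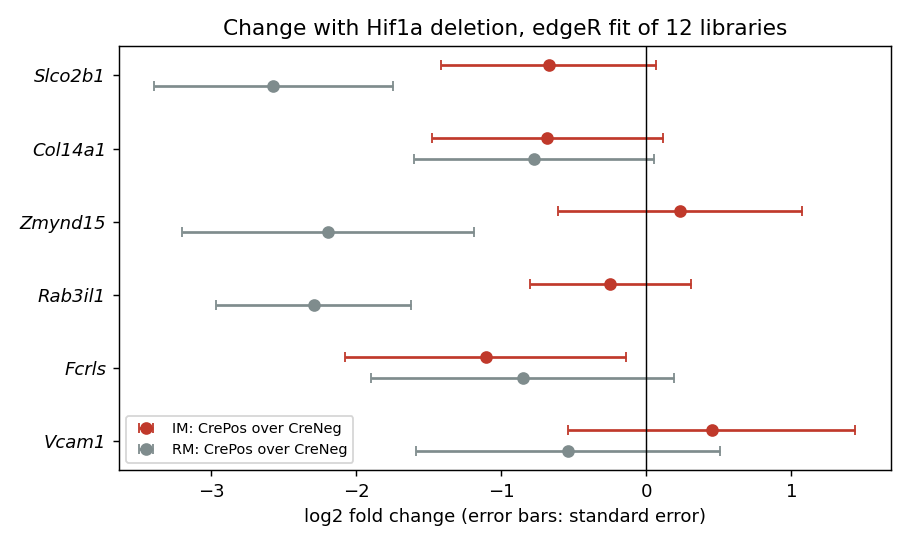
Log2 fold change of CrePos over CreNeg for each gene in IM and in RM from the edgeR fit (error bars: standard error). No gene passed at an adjusted p under 0.05, and the RM values of Slco2b1, Zmynd15 and Rab3il1 lie farthest below 0, between -2.57 and -2.19.

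The low RM levels were set beside those of the IM markers, as a percentage of the mean of the IM libraries of the same genotype. The 6 genes were chosen as far higher in IM than in RM, so low percentages, also beside the marker median, are largely fixed by that choice. In CreNeg RM659, the RM library with the most counts of these genes, the percentage was 7.90% for Slco2b1, 6.48% for Col14a1, 5.85% for Zmynd15, 6.43% for Rab3il1 and 7.49% for Fcrls, a narrow range, and 13.2% for Vcam1. The median of the 22 IM markers in that library was 17.4%, and single markers ran between 0 and 182%. In CrePos RM650 the genes went apart, with 9.70% for Fcrls, 6.71% for Col14a1 and 3.79% for Vcam1, 0.340% for Slco2b1 and no read of Zmynd15 or Rab3il1, beside a marker median of 4.45%. In CreNeg RM657 Zmynd15 (5.77%) and Vcam1 (5.39%) stood above Fcrls (1.53%) and Col14a1 (1.27%), beside a marker median of 19.9%. The marker median was 7.09% in CrePos RM649, 4.13% in CrePos RM661 and 1.84% in CreNeg RM648, where the medians of the 6 genes were 0, 2.35 and 1.32%. The part of macrophage RNA in these RM levels was not tested.

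**Figure D4:**
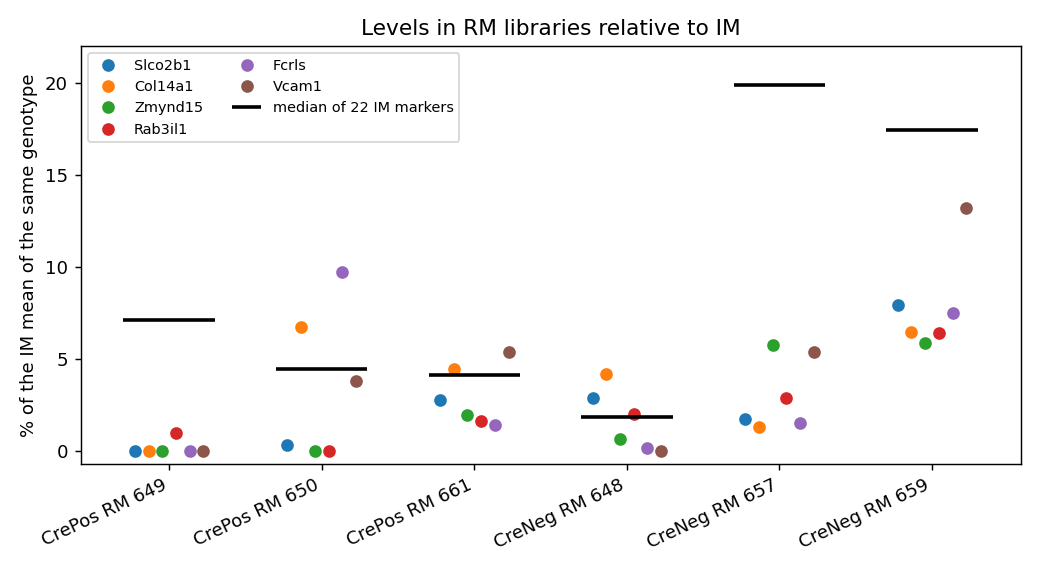
Level of each gene in the 6 RM libraries as a percentage of the mean of the IM libraries of the same genotype (points), with the median of the 22 IM markers (lines). The genes other than Vcam1 lie between 5.85 and 7.90% in CreNeg RM659 and spread between 0 and 9.70% in CrePos RM650. Low percentages are largely fixed by the choice of the genes.

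Since all IM libraries lay above all RM libraries, the order within the 5 numbers that an IM and an RM library share was fixed beforehand, and only the size of the gap is described. The smallest gap was that of Vcam1 between CreNeg IM659 (129 CPM) and CreNeg RM659 (17.95 CPM). In the same pair Col14a1 was at 513 CPM in IM and 33.7 CPM in RM, and Slco2b1 at 527 CPM in IM and 38.1 CPM in RM.

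The profiles of the genes over the 12 libraries were compared with each other. Likeness is the root mean square difference of log2 CPM, each gene centred on its own mean, and smaller means more alike. Zmynd15 and Rab3il1 were 0.87 log2 units apart, Fcrls and Vcam1 1.06, Slco2b1 and Zmynd15 1.06, and Slco2b1 and Col14a1 1.15. The farthest pair, Rab3il1 and Vcam1, were 2.13 apart. All of these rest largely on the IM and RM difference that chose the genes and on RM libraries with few counts.

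Among 12144 other named genes, those nearest to Slco2b1 were Igf1, an insulin-like growth factor (0.71), Mmp13, a collagenase (0.76), and Cd72, a C-type lectin (0.81). Nearest to Col14a1 were Il1rn, the antagonist of the interleukin-1 receptor (0.76), Mmp12, a macrophage elastase (0.85), and Basp1, a membrane-bound signalling protein (0.96). Nearest to Zmynd15 were Leprel1, a collagen prolyl hydroxylase (0.63), Ms4a7, a macrophage membrane protein (0.70), and Amica1, a junctional adhesion molecule of leukocytes (0.77). Rab3il1 was nearest to Aoah, an enzyme that inactivates lipopolysaccharide (0.72), Ms4a7 (0.76) and Stab1, a scavenger receptor (0.77). Fcrls was nearest to the chemokine gene Ccl7 (0.87), Arhgap22 (0.88) and C1qa, a subunit of complement C1q (0.96). Vcam1 was nearest to Arhgap22 (0.87), Pdpn, the membrane protein podoplanin (0.88), and Ccl7 (0.89). Like Fcrls, C1qa averaged less in CrePos IM than in CreNeg IM (433 against 876 CPM), whereas Arhgap22 averaged more (90.3 against 50.5 CPM).

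The relatives and partners of the 6 genes were counted in the same tests, in which 1403 of 14254 genes in IM and 2301 in RM had an unadjusted p under 0.05. Of 12 other organic anion transporters 4 had enough counts to be tested, and none passed in IM or in RM (with an unadjusted p under 0.05 there were 0 in IM and 1 in RM, and DESeq2 called 0 and 1). The most abundant of them, the prostaglandin transporter Slco2a1, was at 205 ± 113 CPM in CrePos IM and 154 ± 76.6 CPM in CreNeg IM, and at 505 ± 304 CPM in CrePos RM and 146 ± 85.4 CPM in CreNeg RM, so its mean in CrePos was lower in IM than in RM. Among 8 measured Fc receptors and Fc receptor-like genes none passed in either cell type, with an unadjusted p under 0.05 for 3 in IM and 5 in RM, and DESeq2 called 0 and 4. The list median was -0.56 in IM and -1.42 in RM. Fcgr3, the low-affinity receptor for IgG, was at 443 ± 57.6 CPM in CrePos IM and 783 ± 65.0 CPM in CreNeg IM (adjusted p = 0.354), and at 68.6 ± 41.0 CPM in CrePos RM and 198 ± 19.3 CPM in CreNeg RM (adjusted p = 0.0502). Of 10 measured microglia signature genes, a list to which Fcrls is related by its use as a marker, none passed in IM or RM (1 and 5 with an unadjusted p under 0.05, and 1 and 3 by DESeq2), with medians of -1.03 and -0.57.

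Among 9 measured collagens and fibril proteins none passed in IM or RM (0 and 2 with an unadjusted p under 0.05, and 0 and 2 by DESeq2). Col3a1, a fibrillar collagen, was at 50.1 ± 5.86 CPM in CrePos IM and 36.9 ± 21.3 CPM in CreNeg IM. The sum of 16 fibroblast and smooth muscle markers was 181 to 389 CPM in CrePos IM and 109 to 359 CPM in CreNeg IM, overlapping, and 223 to 539 CPM in CrePos RM and 124 to 280 CPM in CreNeg RM. Col14a1, which fibroblasts also make, had its higher IM levels in CreNeg (491 to 556 CPM), and the part of fibroblast RNA in them was not tested. Of 12 measured exchange factors and effectors of Rab3 and Rab8, 16 MYND zinc finger genes and 10 partners of Vcam1 none passed in IM (2, 0 and 0 with an unadjusted p under 0.05, and none by DESeq2). None of them passed in RM either (4, 2 and 3 with an unadjusted p under 0.05, and 2, 0 and 1 by DESeq2). Their medians in RM were -0.27, 0.73 and -0.58.

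Among these lists, the genes with the highest level were not past the threshold either. Rab8b, a Rab GTPase of vesicle transport, was at 342 ± 46.0 CPM in CrePos IM and 395 ± 4.13 CPM in CreNeg IM, and at 197 ± 41.6 CPM in CrePos RM and 350 ± 6.51 CPM in CreNeg RM (adjusted p = 0.932 in IM and 0.0837 in RM). Cbfa2t3, a transcriptional corepressor with a MYND finger, was at 97.5 ± 14.8 CPM in CrePos IM and 72.9 ± 11.3 CPM in CreNeg IM, and at 199 ± 50.6 CPM in CrePos RM and 262 ± 57.0 CPM in CreNeg RM. Msn, the membrane to actin linker moesin, was at 993 ± 85.5 CPM in CrePos IM and 1341 ± 82.6 CPM in CreNeg IM, and at 1724 ± 239 CPM in CrePos RM and 2820 ± 536 CPM in CreNeg RM (SD, n = 3). Over the 12 lists, marker lists included, a single gene passed edgeR's test. This was Cebpb of the nonclassical monocyte markers, a transcription factor that these monocytes need in mice. It fell to 273 ± 96.7 CPM in CrePos RM, against 862 ± 156 CPM in CreNeg RM (log2 fold change -1.66, adjusted p = 0.0325).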

How the data were processed

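Raw read counts by gene symbol were deposited by the authors, unscaled, as 1 file per library with 26608 gene rows and 5 summary rows. The build GRCm38 (mm10) and the tools HTSeq 0.6.0, TopHat2 2.1.1 and cutadapt 1.12 come from the submitters' processing notes, which name no roles. Annotation and strand setting were not given in the sources used here. Per the labels' protocols, libraries came from a stranded total RNA kit for very low input, which also reads unspliced RNA. The summary rows, 45.0 to 74.1% of a library's reads, stayed out of library sizes and tests.

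Genes were kept with filterByExpr (minimum count 10), scaled with TMM and fitted in edgeR 4.0.16 (R 4.3.3) by a robust quasi-likelihood model with 4 group means over 12 libraries. Adjusted p is Benjamini-Hochberg over 14254 genes with a threshold of 0.05, and standard errors were taken from the F statistic. DESeq2 1.42.0, limma 3.58.1 and other settings were alternatives. The fit was tested on simulated data. Lanes come from the deposited file names. List genes are named when past the threshold, or when highest in a list of the members' relatives; 3 nearest genes per member are named by root mean square difference of log2 CPM (prior count 2). The members and lists were chosen with earlier results of these data known. Figures used matplotlib 3.10.9.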

Additional observations from a re-analysis of the deposited data

How the results depend on the processing

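The sign of the IM over RM difference was fixed by the choice of the genes and could not turn. The median over the 6 genes was 5.74 in CrePos and 4.62 in CreNeg, with 5.18 to 6.72 and 4.39 to 5.28 on leaving out a library. The number of the 6 genes called was 0 in the 3 deletion comparisons. It was 1 in IM with only the 6 IM libraries (Fcrls) and 1 in RM with DESeq2 (Rab3il1). On leaving out a library it was 0 to 3 in RM. For the difference of the effects it was 0 in all alternatives given here. A fit with neither TMM nor RLE factors is not among those given for the deletion comparisons.

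The number of all genes called in IM was 41. It was 77 without the filter, 950 with only the IM libraries, 0 with the lane and with the non-exonic covariate, 373 with DESeq2, 174 with the number as a random replicate block in limma, and 0 to 234 on leaving out a library. In RM it was 60. It was 153 without the filter, 0 with only the RM libraries, 3 with the lane covariate, 331 with the non-exonic covariate, 950 with DESeq2, 189 with the replicate block, and 4 to 570 on leaving out a library. For the difference of the effects it was 0, with 60 by DESeq2, 2 with the random block, 0 with the number as a fixed block in edgeR, and 0 to 34 on leaving out a library. In RM the calls were 12 higher and 48 lower with TMM and 28 higher and 31 lower with RLE.

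Some log2 fold changes turned their sign, and the cause was not tested. Where the median of all genes is given, it is a description only. In IM, where genotype and non-exonic share cannot be told apart, that covariate put Slco2b1 at 2.66, Col14a1 at 0.025 and Rab3il1 at 1.68. The median of all genes moved to 0.51, relative to which Col14a1 stayed below 0 (-0.48). Zmynd15 in IM was at -0.24 with the lane covariate and -0.10 with the replicate block, and between -0.76 and 0.61 on leaving out a library. In RM with the lane covariate Fcrls was at 0.41 and Vcam1 at 1.14; on leaving out a library they ran between -2.996 and 0.99 and between -1.24 and 0.64. In the difference of the effects, Col14a1 was at -0.042 with RLE (-0.086 relative to the median of all genes, against -0.11 with TMM, so no turn), -0.058 without the filter, -0.055 with the lane covariate and -0.031 with DESeq2, Fcrls at 0.30 with the replicate block and Vcam1 at -0.58 with the lane covariate. On leaving out a library they ran between -0.52 and 0.74 (Col14a1), -2.10 and 1.85 (Fcrls) and -0.19 and 1.69 (Vcam1). The correlations of deviations between libraries that share a number ran between -0.065 and 0.081. With 3 libraries per group they cannot show whether a shared number means the same animal. The main fit did not pair libraries by number, and the replicate block values come from another fit only. Where a gene had no read, depth sets the limit, 0.495 CPM in CrePos RM649, which is below the Col14a1 level in CrePos RM650 and RM661 (21.7 and 14.4 CPM).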
